A study of Mus musculus with 8 samples.

Results

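Carbonic anhydrases are enzymes that interconvert carbon dioxide and bicarbonate, and muscle holds them in the cytosol, in mitochondria and on the outer face of its membranes. The 6 genes described here are Car2, Car3, Car4, Car5b, Car8 and Car14, found by their gene symbol among the 24341 genes of each library's table. They were picked because Car2 and Car3 stood higher in Carm1 knockout muscle, so the genotype differences of all 6 are given as a description and not tested. The source of the RNA was the tibialis anterior, a mostly fast-twitch shin muscle, of 12-week-old mice labelled male and fed chow, with 4 animals for each genotype. The control animals (Carm1 skm+/+, HSAcre 0/0) carried floxed Carm1 without Cre, and the knockout animals (Carm1 skm-/-, HSAcre Tg/0) carried floxed Carm1 with Cre driven by the human skeletal actin (HSA) promoter, whose activity is in muscle fibres. Other cell types in the muscle therefore keep Carm1, a gene for a protein arginine methyltransferase, and Cre and the loss of Carm1 go together in every library.

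In carbonic anhydrases a zinc ion held by 3 histidines carries out the reaction. CAR2 is a fast cytosolic enzyme also known from red cells, and CAR3 is a slow cytosolic enzyme known as an abundant protein of slow-twitch fibres and of fat cells. CAR4 is tethered to the outer face of the plasma membrane, above all in capillary endothelium, CAR14 spans the membrane with its catalytic part outside, and CAR5B lies in the mitochondrial matrix. CAR8 is a carbonic anhydrase-related protein without the enzyme activity, known in Purkinje neurons for binding the inositol trisphosphate receptor.

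The coding sequence at the zinc site is shown for the 5 genes of active enzymes because it holds what they share. Each window is 30 bases of the longest complete coding sequence in GENCODE release M21, written 5′ to 3′ on the coding strand, and the capitals mark the codons at the position of the first zinc-binding histidine and of the histidine that follows it after a single intervening codon.
Car3: cgccaattcCATcttCACtggggctcctct
Car2: atccagtttCACtttCACtggggctcatct
Car14: gcccagctcCACctgCACtggggtcagaga
Car4: gtacagttgCACctgCACtggtcaaatggg
Car5b: aagcagtttCATtttCATtggggagccatt
Both codons are histidine codons (CAC or CAT) in Car2, Car3, Car4, Car5b and Car14. Each window was placed by a search for a protein pattern that fixes the second histidine and limits the first position. The shared histidine codons are therefore not a separate result. The windows lie within exon 3 of Car3 (chr3:14866841-14866870, GRCm38, the assembly of mm10, plus strand) and of Car2 (chr3:14895060-14895089, plus strand). Those of Car14 (chr3:95900297-95900326, minus strand), Car4 (chr11:84964158-84964187, plus strand) and Car5b (chrX:163991402-163991431, minus strand) lie within exon 4. Car3 and Car2 are neighbours on chromosome 3: the listed span of Car3 ends 14052 bases before that of Car2 begins, with no listed gene between them, and Car1 and Car13 lie on the other side of Car3 in the same cluster, which runs from 14641727 to 14900770 (mm10).

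Levels are given as scaled FPKM: the deposited FPKM, a read density per length of transcript and per sequenced library, divided by a scale factor of 0.904 to 1.07 for each library. Read totals are not known from the tables. Low values imply depths of 81.0% to 100% of the deepest library. The muscle markers Ttn, Des, Mb and Ryr1 were present in every library, with Ttn averaging 118 ± 14.3 in the 4 controls and 123 ± 16.8 in the 4 knockouts (SD), while Acta1, Ckm and Tnnt3 had estimates marked as failed in some libraries and were not tested. Xist, the RNA of the inactive X chromosome of females, had deposited FPKM of 19.6 (control 1), 22.9 (knockout 2) and 20.5 (knockout 4) and of at most 0.0662 elsewhere, against the label of male animals. Eif2s3y, a Y chromosome gene, showed the opposite. Its deposited FPKM lay between 42.3 and 58.1 where Xist was absent. Control 1 had 0.112 of it, knockout 4 had 0.0484 and knockout 2 had 0. By both genes the libraries with Xist came from females, so sex was not balanced between the genotypes. Results are therefore also given for the 5 libraries without Xist. Carm1 averaged 30.5 ± 4.82 over the 4 controls and 15.4 ± 2.57 over the 4 knockouts (scaled FPKM, SD), lower in every knockout library, with a log2 difference of -0.94 and an exact permutation p of 0.0286 (2-sided, the smallest that 70 assignments can give). Its listed span overlaps those of 1810026J23Rik and Yipf2. Whether the remaining Carm1 RNA came from fibres or from other cells cannot be told from bulk RNA.

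Car3 was by far the most abundant carbonic anhydrase RNA of the muscle and ranked between 9th and 48th of all listed genes by FPKM in a library. Estimates failed for 2 to 13 genes in a library, so these ranks are not strictly comparable. Acta1, Ckm and Tnnt3 stood at 0 in knockout 1, where 12 genes failed and Car3 ranked 9th. In knockout 2, where 2 genes failed and Car3 ranked 22nd, they stood at 15239, 11871 and 21158 scaled FPKM. It made up between 93.5% and 97.8% of the summed FPKM of the 16 listed carbonic anhydrase genes. Over the 8 libraries the order of mean level was Car3 at 2940, Car14 at 53.9, Car4 at 23.3, Car2 at 12.9, Car8 at 1.93 and Car5b at 0.432 scaled FPKM. The genes were not picked by their level, and the 5 steps between neighbours in this order were tested with an exact sign-flip permutation test over the libraries, 2-sided and with Benjamini-Hochberg adjustment over the 5 steps. The steps from Car3 to Car14 (mean log2 difference in level 5.66, SE 0.18) and from Car14 to Car4 (1.20, SE 0.15) held in 8 of 8 libraries. So did those from Car2 to Car8 (2.18, SE 0.28) and from Car8 to Car5b (0.98, SE 0.13). All steps are on the log2(scaled FPKM + 1) scale, which shortens steps between low genes. With a pseudocount of 0.1 the step from Car2 to Car8 was 2.67 and that from Car8 to Car5b was 1.82. From Car14 to Car4 and from Car8 to Car5b the exact permutation p was 0.00781 each, with an adjusted p of 0.00977. That exact p is the smallest that sign flips over 8 libraries can give. The order itself was set by the mean levels in these same libraries. The steps that involve Car3 or Car2 mix the level with the genotype difference used to pick these genes. No test of those steps is read, and they are given by genotype. The step from Car3 to Car14 was 5.28 ± 0.40 in controls and 6.03 ± 0.27 in knockouts, and that from Car2 to Car8 was 1.57 ± 0.60 and 2.80 ± 0.38 (log2, SD, n = 4 each). The step from Car4 to Car2 was 1.58 ± 0.53 in controls and 0.14 ± 0.40 in knockouts (log2, SD, n = 4 each). Its mean over the 8 libraries, 0.86, mixes the level with the difference used to pick Car2, so no test of it is read. In knockout 1 and knockout 4 Car2 stood above Car4, and in knockouts 2 and 3 and every control below it.

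**Figure D1:**
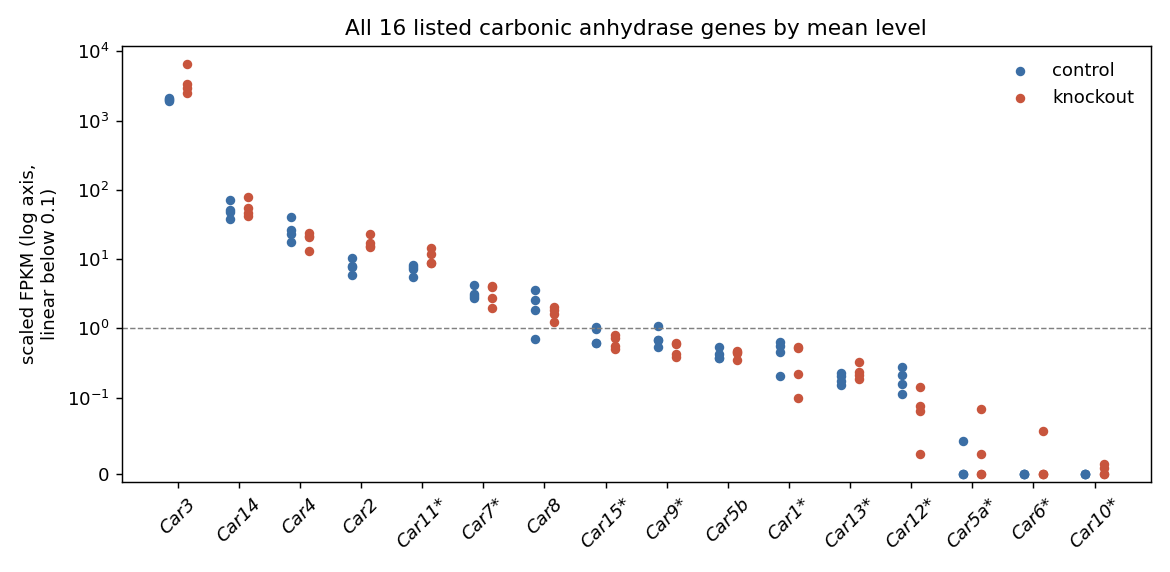
Scaled FPKM of all 16 listed carbonic anhydrase genes on a log axis that is linear below 0.1, with a point for each control (blue) and knockout (red) library, genes in order of mean level and an asterisk on genes outside the 6 described. Car3 lies well above every other gene, 7 genes lie below the dashed line at 1 scaled FPKM in every library, and the knockout points lie above all control points for Car3, Car2 and Car11.

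The cytosolic enzyme genes Car2 and Car3 were the members with higher values in every knockout library. Car2 stood at 10.4, 5.92, 7.75 and 7.89 scaled FPKM in controls 1 to 4 and at 23.4, 15.2, 17.0 and 15.7 in knockouts 1 to 4. The groups did not overlap: the highest control, control 1, lay below the lowest knockout, knockout 2. The means were 7.99 ± 1.85 and 17.8 ± 3.80 (SD, n = 4 each), a ratio of 2.23 and a log2 difference of 1.07 (SE 0.18). Car3 stood at 1969, 2158, 1932 and 2067 scaled FPKM in controls and at 6508, 2966, 2515 and 3404 in knockouts. Controls lay close together, and knockout 1 lay far above the other knockouts, all of which lay above every control. The means were 2031 ± 102 and 3848 ± 1810 (SD, n = 4 each), a ratio of 1.89 and a log2 difference of 0.82 (SE 0.26).

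Knockout 1 held the highest Car3 and the highest Car2 of the 8 libraries. Without it the mean of Car3 in knockouts was 2962 ± 444 (SD, n = 3), a ratio of 1.46 to controls, and the log2 difference was 0.53. For Car2 the mean without knockout 1 was 16 ± 0.958, a ratio of 2.0, with a log2 difference of 0.94. In the 5 libraries without Xist the log2 differences were 1.37 for Car2 and 0.98 for Car3, and without knockout 2 and knockout 4 together they were 1.24 and 1.0. Over 16 alternative fits the log2 difference lay between 0.94 and 1.37 for Car2 and between 0.53 and 1.0 for Car3. Car3 took 0.256% to 0.326% of the summed FPKM in controls and 0.366% to 1.10% in knockouts. The sums include genes with failed estimates, such as Acta1, Ckm and Tnnt3 at 0 in knockout 1, so these shares are not strictly comparable between libraries.

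**Figure D2:**
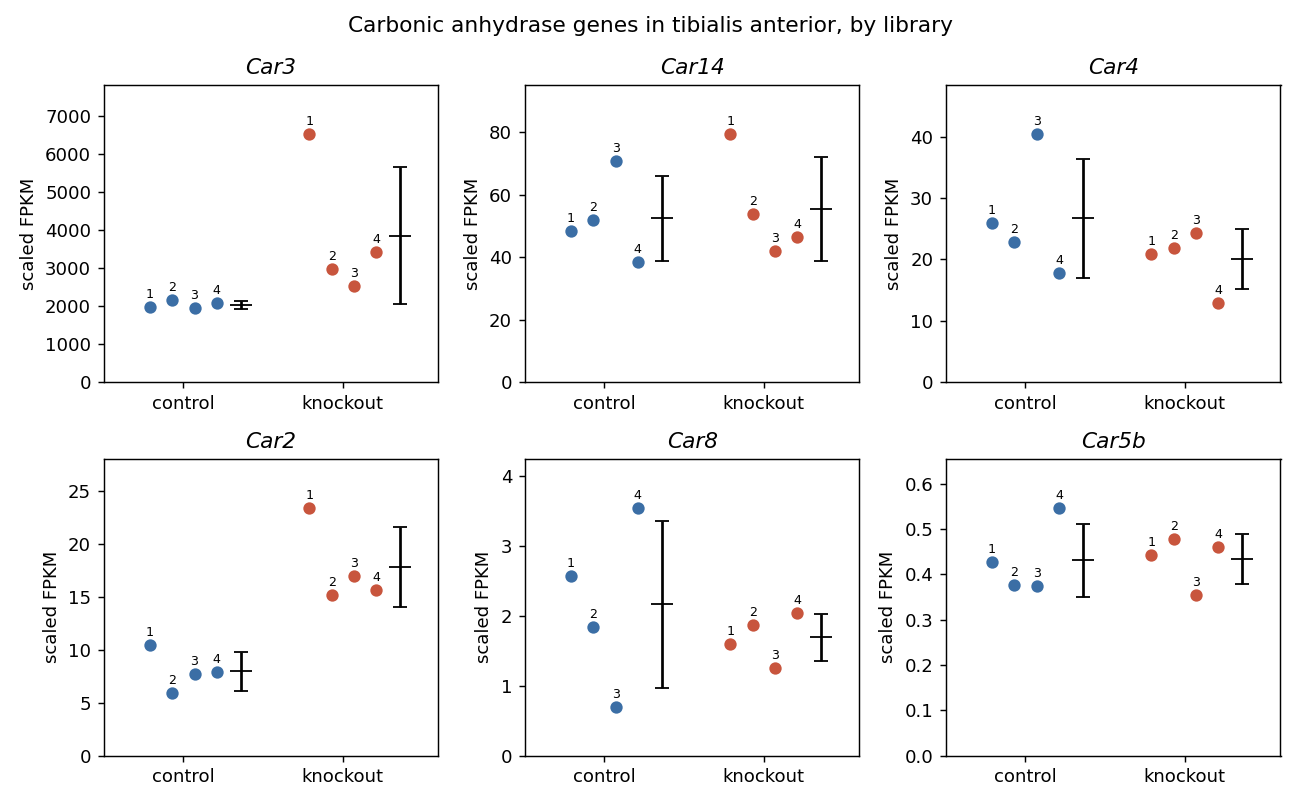
Scaled FPKM of each of the 6 genes, a panel per gene with its own axis from 0, in control (blue) and knockout (red) libraries; points carry the replicate number, and bars show the mean and SD (n = 4). Car2 and Car3 have no overlap between the groups, with knockout 1 highest in both, while the groups overlap for the other 4 genes.

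Of the genes for membrane-bound enzymes, Car14 was close to equal in the genotypes and Car4 had a lower mean in knockouts, with overlapping groups for both. Car14 stood at 48.4, 51.8, 71.0 and 38.4 scaled FPKM in controls and at 79.4, 53.8, 42.1 and 46.6 in knockouts. The extremes were control 4 and knockout 1, and both groups spread over nearly the same range. The means were 52.4 ± 13.6 and 55.5 ± 16.7 (SD, n = 4 each), and the log2 difference was 0.07 (SE 0.23), which changed sign without control 4, at -0.06, and without knockout 1, at -0.11. The listed span of Car14 overlaps that of Aph1a, so reads in the overlap may have been shared between them. Car4 stood at 26.0, 22.8, 40.4 and 17.8 scaled FPKM in controls and at 20.9, 21.8, 24.2 and 12.9 in knockouts. Control 3 was highest and knockout 4 lowest, with the other libraries between 17.8 and 26.0. The means were 26.7 ± 9.71 and 20.0 ± 4.90 (SD, n = 4 each), with a log2 difference of -0.38 (SE 0.26) that became -0.16 without control 3, -0.19 without knockout 4 and -0.17 in the 5 libraries without Xist.

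Car8 and Car5b had the lowest levels of the 6. Car8 stood at 2.57, 1.84, 0.701 and 3.54 scaled FPKM in controls and at 1.6, 1.87, 1.25 and 2.03 in knockouts. All 4 knockouts lay inside the range of the controls, whose spread was larger. Its means were 2.16 ± 1.20 and 1.69 ± 0.341 (SD, n = 4 each) and its log2 difference -0.15 (SE 0.27), which was -0.42 (SE 0.17) without control 3 and 0.05 (SE 0.24) without control 4. Car5b, the gene for the mitochondrial enzyme, lay between 0.354 and 0.546 scaled FPKM, with means of 0.431 ± 0.0805 in controls and 0.434 ± 0.0550 in knockouts (SD, n = 4 each). It did not pass the filter of 1 scaled FPKM in at least 4 libraries, and its log2 difference was 0.00 (SE 0.05). As the pseudocount of 1 exceeds its level, that scale would show little of any change in Car5b.

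Of the 5 members that passed the filter, 0 were called by limma at an adjusted p under 0.05, where 40 of 11096 genes (0.36%) were called, 0.198% of all tested genes as higher and 0.162% as lower, and 1454 had an unadjusted p under 0.05. Car2 was called in the fit with Xist status as a covariate, where 121 of the 11096 genes were called higher and 102 lower. It was also called with FPKM left unscaled, where 36 were called higher and 13 lower. No member was called in the other 14 alternative fits. Values in every knockout above every control were seen in 2 of the 5 members and in 4.67% of the genes tested. Values in every knockout below every control were seen in 0 of the 5 and in 3.64%. A log2 difference of at least 0.5 was seen in Car2 and Car3 and in 2.24% of the genes tested. Nothing is read from these calls and counts, since Car2 and Car3 were picked on this contrast. The median log2 difference was 0.07 over the 5 members and -0.00 over all genes tested.

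**Figure D3:**
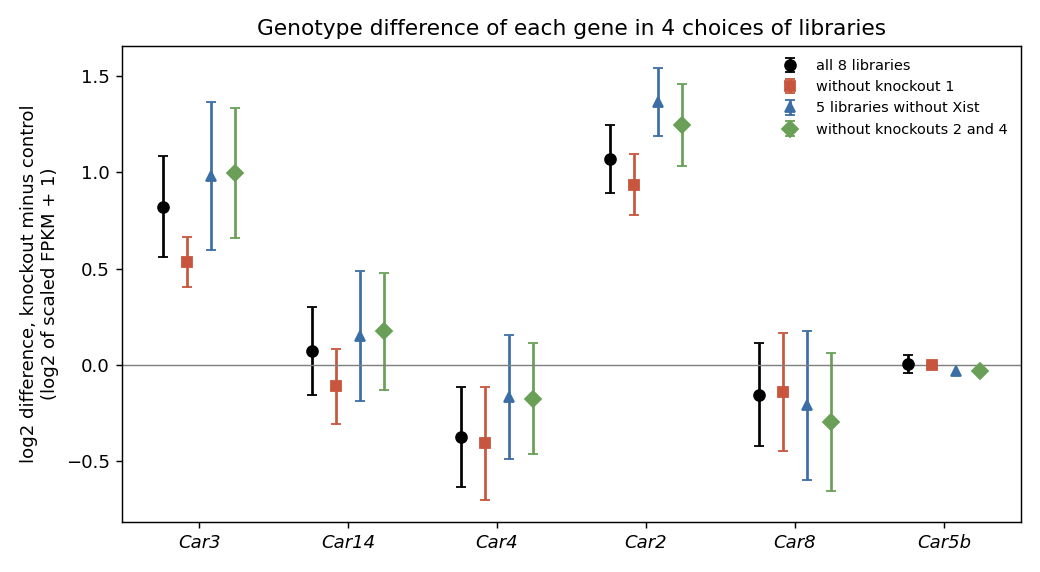
Log2 difference of each gene, knockout minus control, on the log2(scaled FPKM + 1) scale, with all 8 libraries, without knockout 1, with the 5 libraries without Xist and without knockouts 2 and 4; bars are the limma SE, which for Car5b is shown for all 8 libraries alone. Car2 and Car3 lie above 0 in all 4 sets and Car4 and Car8 below 0, and Car14 changes sign without knockout 1.

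Of the 10 other listed carbonic anhydrase genes, Car11 and Car7 passed the filter, and neither was called. Car11, which encodes another carbonic anhydrase-related protein without enzyme activity, stood at 5.50, 8.29, 7.28 and 7.68 scaled FPKM in controls and at 14.6, 8.78, 12.0 and 8.77 in knockouts. Every knockout lay above every control, and as with Car2 and Car3 the highest value was in knockout 1. The log2 difference was 0.54 (SE 0.18) with a limma adjusted p of 0.233. Car7, a cytosolic enzyme gene, averaged 3.25 ± 0.656 over the 4 controls and 3.20 ± 0.999 over the 4 knockouts (SD), with a log2 difference of -0.04 (adjusted p = 0.947 in limma). Car1, the red cell enzyme gene next to Car3, lay between 0.10 and 0.636 scaled FPKM, and Car13, beside it in the cluster, between 0.15 and 0.328. Car9 and Car15 reached 1 scaled FPKM in a single library each, at up to 1.08 and 1.05, Car12 reached at most 0.275, and Car5a, Car6 and Car10 were listed at 0 in at least 5 libraries each.

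Fat markers were split in knockout 1, the library with the highest Car3. The list of 15 fat cell markers, without carbonic anhydrases, summed to between 1015 and 1250 scaled FPKM in controls and between 848 and 1105 in knockouts, most of it Fabp4, which capillary endothelium also expresses. The lowest sum, 848, was that of knockout 1, where Fabp4 was also lowest of the 8 libraries at 639. In the same library 6 of the 15 markers had their highest value: Adipoq, Plin1, Cidec, Lep, Scd1 and Pck1. The mean log2 deviation of the 7 tested markers from their means over the 8 libraries was highest in knockout 1, at 0.43. It was 0.37 in control 3, the next highest. Adipoq, Plin1 and Cidea were chosen after their values were seen. Adipoq, the fat cell hormone adiponectin, stood at 3.29 in knockout 1, between 0.354 and 0.922 in the other knockouts and between 0.712 and 1.74 in controls. Plin1, which coats the fat droplet, stood at 0.868 in knockout 1, between 0.0143 and 0.118 in the other knockouts and between 0.115 and 0.341 in controls. Cidea, another protein of the fat droplet, stood at 0.874 in knockout 1, below 3 of the 4 controls, whose range was 0.766 to 2.11. The part of fat in the Car3 values of any library was not tested. Of the 7 fat markers tested 3 were higher, 4 lower and 0 called, with a median log2 difference of -0.26; the smallest p-values belonged to Retn at -0.67 and Fabp4 at -0.26 (limma adjusted p 0.402 and 0.493).

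The 5 red cell markers tested did not separate the genotypes, while some that did not pass the filter were higher in every knockout. The haemoglobin gene Hba-a1 stood at 169, 134, 232 and 241 scaled FPKM in controls and at 141, 138, 222 and 319 in knockouts. Alas2, which starts haem synthesis in red cell precursors, stood at 4.39, 2.77, 4.60 and 6.04 in controls and at 2.80, 3.26, 5.0 and 7.23 in knockouts. Knockout 1, with the highest Car2, lay near the low end of both genes, and knockout 4, highest in both, had a Car2 value close to those of knockouts 2 and 3. Hba-a1 and Alas2 were chosen after their values were seen. Hbb-bs, a beta globin gene that did not pass the filter, was instead highest in knockout 1 at 10.6, against 0.00664 in knockout 4. The part of red cells in the Car2 values was not tested. The 12 listed markers summed to between 407 and 804 scaled FPKM in controls and between 427 and 1048 in knockouts, the membrane protein genes Slc4a1 and Rhag lay below 0.1 in every library, and of the 5 tested 3 were higher, 2 lower and 0 called (median 0.00). The smallest p-values belonged to Bpgm at -0.26 and Hbb-bt at 0.46 (limma adjusted p 0.317 and 0.484), the latter a near-identical copy of other beta globin genes, between which reads can be split.

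Most slow-fibre markers had higher means in knockouts, but not all of them in the libraries with high Car3. Of 13 tested 11 were higher, 2 lower and 0 called, with a median log2 difference of 0.53, and the 14 summed to between 353 and 1284 scaled FPKM in controls and between 354 and 2305 in knockouts. That median was 0.21 in the 5 libraries without Xist, 0.10 without knockouts 2 and 4 and 0.15 without knockout 4 alone, and between 0.23 and 0.26 without control 4 or knockout 2. Tnnt1, slow troponin T, stood at 16.1, 9.30, 14.4 and 6.90 in controls and at 56.4, 23.3, 17.0 and 21.2 in knockouts. It was highest in knockout 1, like Car3, and its log2 difference was 1.17 (limma adjusted p = 0.23). Atp2a2, the calcium pump of slow fibres, had a log2 difference of 0.53 (adjusted p = 0.189 in limma). Csrp3, a stretch-responsive protein of the sarcomere edge, stood instead at 321, 83.4, 259 and 91.1 in controls and at 84.1, 716, 79.1 and 1260 in knockouts.

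Control 1 showed high slow-fibre and type IIa values without high Car3. Myh2, the type IIa myosin gene, stood at 782 scaled FPKM in control 1, 1442 in knockout 2 and 1438 in knockout 4, the libraries with Xist, and between 119 and 173 in the other 5. Car3 in control 1 was 1969, inside the range of the other controls, and Car3 in knockout 1 was 6508 with Myh2 at 119. Among 10 fast-fibre genes tested 9 were lower, 1 higher and 0 called, with a median log2 difference of -0.34, the smallest p-values being those of Mylpf at -0.59 and Myl1 at -0.52 (limma adjusted p 0.203 and 0.4). The other 4 of the 14 listed, Tnnt3, Atp2a1 and the fast myosin genes Myh1 and Myh4, had failed estimates in some libraries and were not tested. The median of the 10 tested was -0.09 in the 5 libraries without Xist, 0.00 without knockouts 2 and 4 and -0.02 with quantile normalization. In bulk muscle a change in the share of fibres of a type and a change of RNA within fibres cannot be told apart, and the part of fibre type in the Car2 and Car3 values was not tested.

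**Figure D4:**
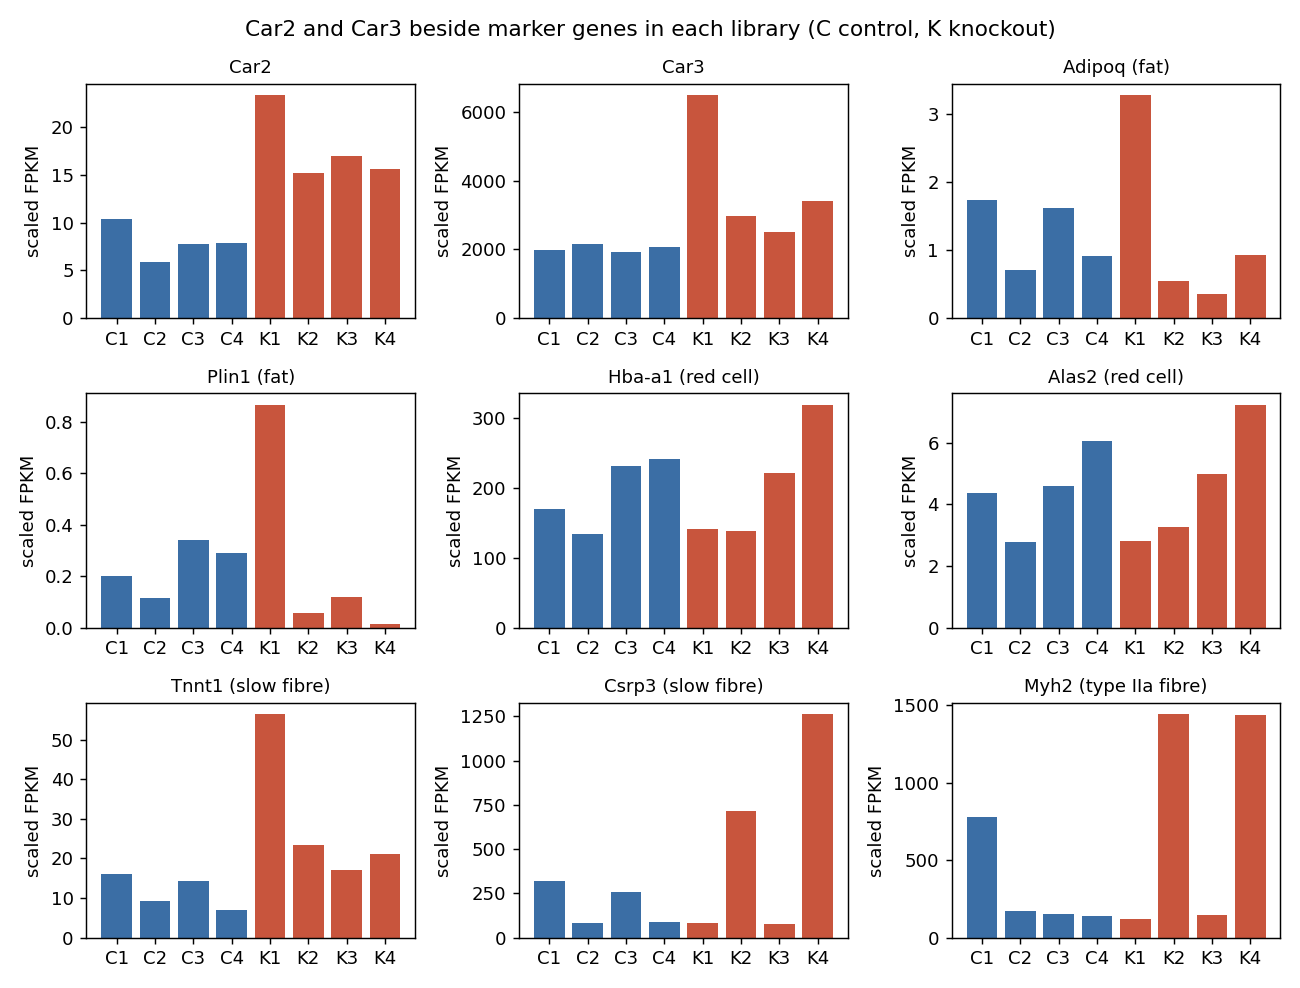
Scaled FPKM per library (C1 to C4 control in blue, K1 to K4 knockout in red) of Car2, Car3 and 7 marker genes of fat, red cells and fibre types, picked from the lists after their values were seen; each panel starts at 0. K1 is highest for Car2, Car3, Adipoq, Plin1 and Tnnt1, K4 for Hba-a1, Alas2 and Csrp3, and Myh2 is high in C1, K2 and K4.

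Endothelial markers, given beside Car4, were lower in knockouts for 12 of 12 genes tested, with 0 called and a median log2 difference of -0.17. They summed to between 977 and 1085 scaled FPKM in controls and between 828 and 1056 in knockouts, and the smallest p-values belonged to Gpihbp1, the capillary anchor of lipoprotein lipase, at -0.23 and Esam at -0.20 (limma adjusted p 0.352 and 0.408). Control 3, highest in Car4, was not highest in this sum, where control 2 stood at 1085 and control 3 at 1021. Aqp1 alone made up 571 and 475 of these. Gene by gene, control 3 was highest in 4 of the 12 markers, as was control 4, and control 2 was highest in 1. Fewer endothelial cells and less RNA per cell cannot be told apart here, and the part of endothelium in the Car4 value was not tested. Myeloid markers had 7 of 8 tested genes higher and nerve markers 0 of 7, with medians of 0.10 and -0.09 and 0 called in either list. The lists summed to between 41.3 and 71.9 and between 85.8 and 133 scaled FPKM in controls and to between 35.1 and 65.3 and between 87.0 and 106 in knockouts.

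Genes that work with carbonic anhydrases showed no call. Among 13 tested transporters of bicarbonate, protons and lactate and water channels 4 were higher and 9 lower, with a median log2 difference of -0.02. The anion exchanger gene Slc26a6 had scaled FPKM of 5.36 ± 0.775 (controls) and 4.17 ± 0.472 (knockouts), with a log2 difference of -0.29 (limma adjusted p = 0.305). The lactate transporter genes Slc16a3 and Slc16a1 stood at 204 ± 72.2 and 20.7 ± 4.55 in controls and at 195 ± 39.9 and 21.3 ± 5.25 in knockouts, chosen after their values were seen. Among 7 tested enzymes that use bicarbonate 4 were higher and 3 lower, with a median of 0.10. Pcca, a subunit of propionyl-CoA carboxylase, had a log2 difference of -0.48 and Mccc1, a subunit of methylcrotonyl-CoA carboxylase, of 0.46 (limma adjusted p 0.125 for both). The values of Pcca were 36.1, 31.1, 31.3 and 31.9 in controls and 18.7, 27.0, 24.4 and 23.0 scaled FPKM in knockouts. Mccc1 had means of 14.4 ± 1.95 and 20.0 ± 2.09 (SD, n = 4 each), with control 1 highest of the controls at 17.2 and knockout 1 lowest of the knockouts at 17.9. Neither gene had overlapping groups, as held for 8.31% of all genes tested.

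Within each genotype the members did not vary together as a set. Taking each library's deviation from its group mean on the log2 scale over the 8 libraries, which leaves out the genotype difference, Car3 and Car2 had a Pearson r of 0.52 (Spearman rho 0.40) and Car3 and Car14 one of 0.65 (rho 0.45), with knockout 1 high in all 3. Car4 and Car8 varied in opposite directions, with r of -0.83 (rho -0.74): control 3 had the highest Car4 and the lowest Car8. Car8 and Car5b had r of 0.80 (rho 0.81). These are descriptions over 8 libraries that share their scaling, chosen from 15 pairs, with no test.

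By the same measure the genes most like Car3, of all genes tested, were Chrna1, Ncam1 and Chrna9. Chrna1, which encodes the alpha subunit of the muscle acetylcholine receptor, had r of 0.98 (rho 0.95), Ncam1, the neural cell adhesion molecule, 0.97 (rho 0.95), and the receptor subunit Chrna9 0.97 (rho 0.86). Chrna1 stood at 4.72, 4.85, 4.35 and 4.92 scaled FPKM in controls and at 39.3, 6.98, 4.44 and 6.62 in knockouts. Chrna9 lay between 0.0746 and 0.157 in controls and stood at 16, 1.41, 1.14 and 1.67 in knockouts. It thus passed the filter of 1 scaled FPKM in at least 4 libraries through the knockouts alone. Knockout 1 was the highest library for all 3 genes, and without it and knockout 3, the libraries farthest from the median of Car3, the r values were 0.74, 0.81 and 0.78. How far the likeness rests on knockout 1 alone was not tested.

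The other members had other companions. For Car2 they were the phosphatase gene Ptp4a2, Tti1 and the interferon-inducible Irgm1 (r 0.93, 0.92 and 0.91), which fell to 0.84, 0.64 and 0.76 without control 1 and knockout 1. For Car4 they were the sodium channel subunit Scn2b, the transcription repressor Nfil3 and Mthfs (r 0.98, 0.97 and 0.97). Nfil3, like Car4, was highest in control 3 at 50.8 and lowest in knockout 4 at 7.97 scaled FPKM. For Car8 they were Zfp422, the chloride channel Ano1 and the transcription factor Sox6 (r 0.99, 0.98 and 0.97), and for Car14 the hormone gene Retn, Dpm3 and Utp3 (r 0.98, 0.96 and 0.95). The highest of all r values was picked for each member, so none was tested.

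Promoter sequences, 250 bases before to 50 after the start, were held by RefSeq on GRCm38.p6 for Car4, Car5b and Car14. Of the 3 motifs searched on both strands, TATAAA was found in the promoter window of Car4, after the start, and in 13.6% of all 32851 windows. CAGCTG and AGGTCA, each found in 16.3% of the windows, had no match in any of the 3.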

How the data were processed

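RNA was isolated with Trizol from the frozen tibialis anterior of 8 mice and made into TruSeq RNA v2 libraries, per the labels' protocols. The authors deposited 1 table of gene FPKM for each library, with Cufflinks column names per the file headers. The submitters' processing notes name STAR, Cufflinks and mm10 without versions; the annotation behind the tables is not given in what was used here. No counts are given, so no count model was used. The fits left out 23 genes whose quantification status was not OK somewhere. Whether the kit's reads were counted by strand is not stated. Each library is a separate animal, per the labels.

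Each library was scaled by a median of ratios, taken over the genes at 1 FPKM or more everywhere, and analysed as log2(scaled FPKM + 1), which understates the change of low genes. Genes at 1 scaled FPKM or more in at least 4 libraries, 11096 in all, were fitted with limma 3.58.1 in R 4.3.3 (eBayes with trend) and Benjamini-Hochberg adjustment at 0.05; the script was tested on simulated data. Alternatives kept these genes and factors unless they name another choice: a pseudocount of 0.1, no filter, quantile normalization, no scaling, a replicate block, a covariate for Xist (1 FPKM or more), the 5 libraries that lack Xist, dropping knockouts 2 and 4, and dropping each library in turn. The remaining steps used scipy 1.17.1, numpy 2.4.6, matplotlib 3.10.9 and pandas 2.3.3 in Python 3.11.15. The members, lists and tests were chosen with earlier results of these data known. Named are all listed carbonic anhydrase genes, Carm1, in each list the called genes (at most 2 a direction) or, with none, those 2 whose p was smallest, and for each member the 3 most similar genes without clone-type names; further list genes were chosen after their values were seen. A few list genes and a sequence are not reported here.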

Additional observations from a re-analysis of the deposited data

How the results depend on the processing

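The 16 alternative fits left the log2 differences of Car2 and Car3 above 0 and that of Car4 below 0, and each moved by less than the spread between replicates except Car2 in the 5 libraries without Xist, at 1.37. The counts of called genes were unstable: against 22 higher and 18 lower, they were 121 and 102 with Xist as a covariate, 36 and 13 without scaling, 4 and 4 without a filter, 6 and 7 without knockouts 2 and 4, 0 and 3 in the 5 libraries without Xist (1379 at an unadjusted p under 0.05 in limma), and 1 to 13 and 1 to 14 when 1 library was left out (1 to 8 lower without a library other than knockout 3). With the replicate number as a block limma called 0 and 0 (1314 at an unadjusted p under 0.05). Whether the numbers pair the animals cannot be told. Deviations of same-numbered libraries correlated at -0.43, -0.19, 0.35 and 0.19, and 2 of 4 controls correlated best with their own number. For Carm1 the block gave -0.94 with an exact p of 0.125, the smallest 4 pairs allow. Without Xist libraries it was -0.80 (p = 0.1, exact permutation) and without knockouts 2 and 4 -0.75 (p = 0.0667, exact permutation), each also the smallest those numbers allow. In the 5 libraries without Xist no step in level can pass: the steps were 5.60, 1.13, 1.09, 2.17 and 0.90 in the order given. The step from Car4 to Car2 was 1.11 without knockouts 2 and 4 and between 0.67 and 1.02 without 1 library (0.67 to 0.92 without a library other than knockout 1 or 4), and no test of it is read. The cause of these changes was not tested. Read depth is not given, so counting error is unknown and weighs most on Car8 and Car5b.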
